A study of Mus musculus with 12 samples.

Results

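The 8 genes described here encode members of the Nodal and Lefty pathway: the ligands Nodal and Gdf3, the co-receptor Tdgf1, the secreted inhibitors Lefty1, Lefty2 and Cer1, and the intracellular inhibitors Smad7 and Skil. They were taken by gene symbol, and each matched 1 of the 36521 gene rows of each deposited table. Poly(A) RNA was sequenced in 3 groups of 4 libraries, all from the mouse embryonic stem (ES) cell line V6.5 grown in medium with serum and the cytokine LIF. Tet1kd cells had been electroporated with the vector pSUPER-puro carrying a short hairpin RNA against Tet1, and Tet2kd cells with the same vector carrying one against Tet2. Both were selected with puromycin on SNL76/7-4 feeder cells and picked as single clones, and how many clones stand behind the libraries is not stated in the labels. Parental cells had no knockdown, and no group carried an empty vector or a control hairpin, so what the hairpin did cannot be told apart from what vector, selection or clone did. Tet1 and Tet2 encode dioxygenases that oxidize 5-methylcytosine in DNA to 5-hydroxymethylcytosine.

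Nodal is a secreted ligand of the TGF-beta family that acts in the early embryo and in cultured ES cells. It binds activin receptors together with the co-receptor Tdgf1 (also called Cripto), and the receptors phosphorylate Smad2 and Smad3, which join Smad4 and enter the nucleus with partners such as Foxh1. Lefty1 and Lefty2 are targets of this signal and block it from outside the cell, while Smad7 and Skil damp it inside, so the pathway holds several negative feedback loops.

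The secreted inhibitor Lefty1 and the intracellular inhibitor Smad7 were higher in both knockdowns, Tdgf1 was called higher in Tet1kd cells, and Lefty2 and Cer1 were called higher in Tet2kd cells, while the ligand Nodal passed the test in neither. In Tet1kd cells 3 of the 8 genes were called, at an adjusted p under 0.05 in the authors' deposited table, and all 3 (Lefty1, Tdgf1 and Smad7) were higher. In that comparison 30.4% of all 23120 genes tested were called, 15.2% as higher, so the share of the 8 genes called was near that of all genes. In Tet2kd cells 4 of the 8 genes were called in the authors' deposited table, all of them higher (Lefty1, Lefty2, Cer1 and Smad7), against a background of 7.14% of 22949 genes called and 3.85% called higher. The median log2 fold change over the genes with a finite value was 0.05 for 7 of the genes in Tet1kd cells, beside -0.02 for all 20542 genes, and 0.24 for all 8 in Tet2kd cells, beside 0.00 for all 20423 genes, both from the authors' deposited tables. The shares over all genes include genes with few reads. Both comparisons use the same 4 parental libraries. In bulk RNA a lower share of cells that express a gene and less RNA per cell cannot be told apart.

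**Figure D1:**
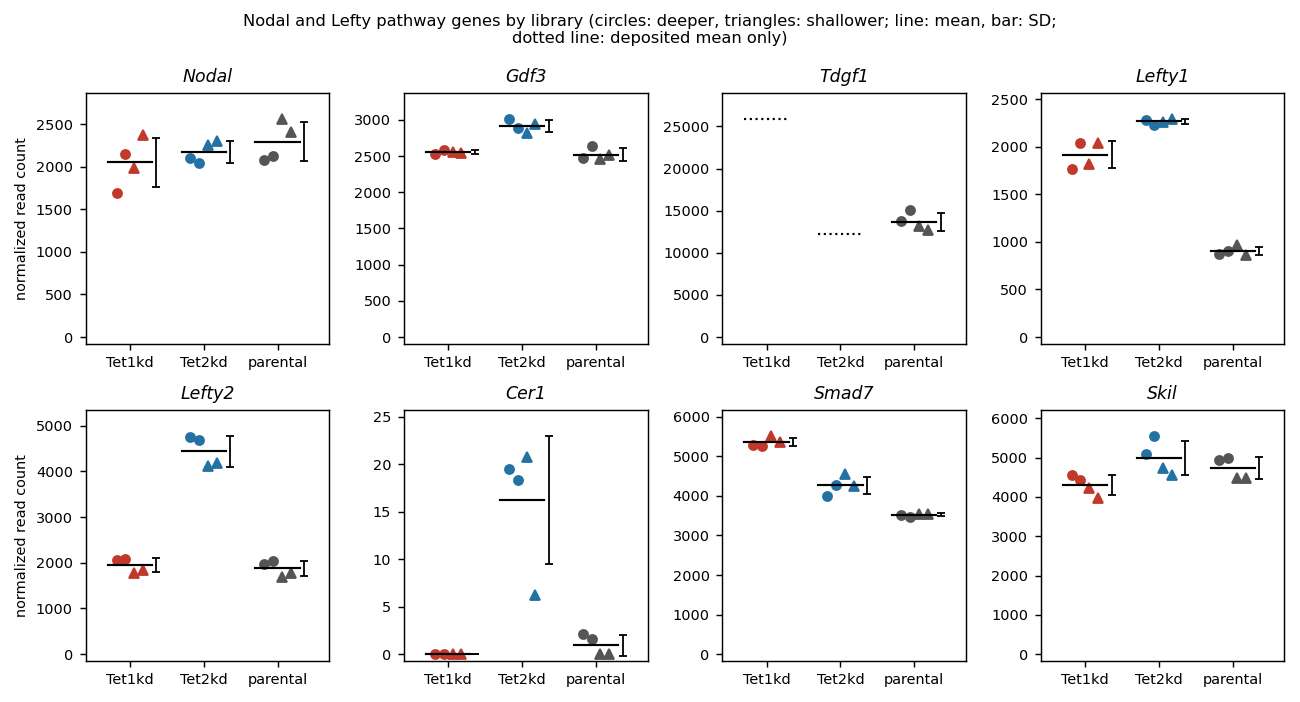
Normalized read count (y axis, linear) of each of the 8 genes in each library of Tet1kd, Tet2kd and parental cells. Circles are the deeper and triangles the shallower libraries, lines are means and bars the SD (n = 4), and dotted lines are deposited means where libraries were not recovered. The Lefty1 and Smad7 values of both knockdowns lie above all parental values, and those of Lefty2 do so in Tet2kd cells.

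The deposited gene tables hold group means, from which the reads of single libraries were recovered and named a to d by size factor. Values below are normalized read counts (reads divided by a library size factor), with the Tet2kd values multiplied by 1.089 to place both tables on 1 scale. Libraries held an estimated 15.8 to 39.7 M reads in Tet1kd, 14.4 to 31.1 M in Tet2kd and 14.7 to 31.5 M in parental cells. In each group a and b were deeper than c and d. Where groups are said below not to overlap, the share of all genes that separate so was not counted. The labels call the libraries biological replicates but do not say that they came from separate cultures, so p-values measure the spread between these libraries. In the authors' deposited tables Tet1 kept 25.2% of its parental mean in Tet1kd cells and Tet2 50.9% in Tet2kd cells. There Tet2 was called higher in Tet1kd cells, at 117.8% of its parental mean (first deposited test, adjusted p = 0.0186). Tet1 was at 116.5% in Tet2kd cells and was not called (same test, adjusted p = 0.104).

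All 10 ES cell markers of the list used here, among them Pou5f1, Sox2, Nanog and Esrrb, had high means in every group of the authors' deposited tables, the lowest being 2725 (Tcl1 in parental cells). In Tet1kd cells 5 of them were called higher and 1 lower, and in Tet2kd cells 2 were called higher and 0 lower. The summed level of 14 feeder fibroblast markers was 4801 to 5266 in Tet1kd libraries, 10262 to 10722 in Tet2kd libraries and 8006 to 8448 in parental libraries, with 11 members called lower and 1 higher in Tet1kd cells and 1 lower and 5 higher in Tet2kd cells. None of these 14 was at 0, Lum in Tet1kd cells being the lowest at 0.414 in the authors' deposited table, and the part of feeder RNA in the results below was not tested.

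Neither ligand passed the first deposited test in either knockdown. Nodal (ENSMUSG00000037171, chromosome 10) had normalized counts of 1691, 2151, 1991 and 2380 in Tet1kd libraries, of 2099, 2041, 2258 and 2303 in Tet2kd libraries and of 2077, 2131, 2564 and 2412 in parental libraries. The 3 groups overlapped. The log2 fold change of Nodal was -0.16 for Tet1kd (adjusted p = 0.399) and -0.08 for Tet2kd cells (adjusted p = 0.9), both from the authors' deposited tables. The 95% interval of the log2 difference, from a limma fit of the recovered libraries, ran from -0.40 to 0.07 for Tet1kd and from -0.31 to 0.16 for Tet2kd cells, so a change of the size seen in Lefty1 lay outside both. Within the deeper libraries the log2 difference from parental cells was -0.13 for Tet1kd and -0.02 for Tet2kd cells, and within the shallower ones -0.19 and -0.13.

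The genes that flank Nodal stood otherwise in Tet1kd cells. Among the 20 nearest genes with values on chromosome 10, 10 on each side, 13 were higher and 5 lower in Tet1kd cells, and their median log2 fold change was 0.51 by the authors' deposited table. In Tet2kd cells the median of the same neighbours was 0.00, with 3 higher and 2 lower. Neighbour medians in Tet1kd cells were also above 0 around Lefty2 (0.29) and Lefty1 (0.21), whose sets of neighbours share genes. They were above 0 too around Skil (0.18), Tdgf1 and Cer1 (0.16 each) and Smad7 (0.08), and below 0 around Gdf3 (-0.17). The neighbours counted had a mean of at least 10 and were called by the first deposited test, which called 30.4% of all genes. A different test, limma, called 53.1% of genes with such a mean in the Tet1kd comparison. The share that the deposited test called among genes with such a mean was not counted. Whether the values of these neighbours bear on that of Nodal was not tested.

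Gdf3 (ENSMUSG00000030117, chromosome 6), a related ligand that is abundant in ES cells, was at 2531, 2590, 2553 and 2548 in Tet1kd libraries, at 3015, 2886, 2826 and 2951 in Tet2kd libraries and at 2473, 2644, 2459 and 2510 in parental libraries. All Tet2kd values lay above all parental and all Tet1kd values, while Tet1kd and parental values overlapped. The log2 fold change of Gdf3 for Tet2kd cells, 0.21 by the authors' deposited table, missed the threshold of their first test (adjusted p = 0.109) but passed their second test, a generalized linear model (adjusted p = 1.42e-05), which called 18.2% of all genes there and 39.2% in the Tet1kd comparison. The limma fit also placed it past the threshold, at 0.21 with a 95% interval of 0.12 to 0.31 (adjusted p = 0.00778), in a comparison where limma called 17.7% of all genes, against 53.1% for Tet1kd and parental cells. The call therefore depends on the test, and the size is small. Within the deeper libraries the log2 difference of Tet2kd and parental cells was 0.21, and within the shallower ones 0.22. In Tet1kd cells the authors' deposited table had Gdf3 at 0.02 on the log2 scale (adjusted p = 1).

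Tdgf1 (ENSMUSG00000032494, chromosome 9) was the most abundant of the 8 genes, with 7069 normalized counts per kb of transcript in parental cells, a level above that of 99.6% of 15584 genes. On the same scale of level per kb, Gdf3 followed at 1187, Nodal at 1096, Smad7 at 822, Lefty2 at 758, Skil at 704, Lefty1 at 557 and Cer1 at 0.538. The 4 parental libraries held 13751, 15055, 13170 and 12654 normalized counts of Tdgf1. The knockdown means were too high for the reads of single libraries to be recovered, so no spread is given for them. The authors' deposited table gave a mean of 25901 in Tet1kd cells against 13658 in parental cells, or 0.92 on the log2 scale (adjusted p = 5.6e-20). In the authors' deposited table for Tet2kd the means were 11207 in Tet2kd and 12542 in parental cells, a log2 fold change of -0.16 that missed the threshold of the first test (adjusted p = 0.28) and passed the second (adjusted p = 0.00088). For Tdgf1 the knockdowns were not tested against each other.

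Tdgf1 has pseudogene copies, so some of its reads are uncertain. The copy with a row of its own, Tdgf1-ps2, had means of 4.49 in Tet1kd and 1.15 in parental cells in the authors' deposited table. The 250 bases before the Tdgf1 start, at chr9:110946159-110946408 on the minus strand (RefSeq, GRCm38.p6), are shown because Tdgf1 is a gene of this pathway whose window holds letters of both motifs searched. Capitals mark TGTNNATT, a form of the sequence that FOXH1 binds, and CAGAC, a SMAD-type motif, each on either strand. They did not overlap each other.
Tdgf1: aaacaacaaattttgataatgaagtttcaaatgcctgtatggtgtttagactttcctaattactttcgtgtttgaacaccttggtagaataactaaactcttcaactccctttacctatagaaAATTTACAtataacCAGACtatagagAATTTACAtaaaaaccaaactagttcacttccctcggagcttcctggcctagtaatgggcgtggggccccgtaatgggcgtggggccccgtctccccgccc
The window held 2 matches of the first motif and 1 of the second, and 7 CpG dinucleotides. Of 32851 promoter windows of this length, 10.9% held TGTNNATT and 42.2% held CAGAC, and the median number of CpG was 6. Nodal's own window (chr10:61417722-61417971, plus strand) held neither motif and 3 CpG. A match of letters does not show that a factor binds there. Promoter windows were at hand for 3 of the 8 genes (Tdgf1, Nodal and Cer1).

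Lefty1 (ENSMUSG00000038793, chromosome 1), a secreted inhibitor that binds Nodal and its co-receptor, was higher in both knockdowns. Its normalized counts were 1769, 2041, 1823 and 2035 in Tet1kd libraries, 2280, 2231, 2259 and 2292 in Tet2kd libraries and 877, 905, 965 and 865 in parental libraries. No knockdown value came near the parental range, and all Tet2kd values lay above all Tet1kd values. By the authors' deposited tables the log2 fold change of Lefty1 was 1.09 in Tet1kd cells (adjusted p = 1.84e-28) and 1.33 in Tet2kd cells (adjusted p = 3.51e-45). Within the deeper libraries the log2 difference was 1.10 for Tet1kd and 1.34 for Tet2kd cells, and within the shallower ones 1.08 and 1.31. Among genes with a parental mean of at least 500 in the authors' deposited tables, 47 of 7215, Lefty1 included, had a log2 fold change at least as high in Tet1kd cells, and in Tet2kd cells Lefty1 had the highest of 6959.

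Lefty2 (ENSMUSG00000066652, chromosome 1), the close paralog of Lefty1, was higher in Tet2kd cells. Its normalized counts were 2050, 2092, 1783 and 1850 in Tet1kd libraries, 4761, 4687, 4124 and 4176 in Tet2kd libraries and 1982, 2049, 1690 and 1780 in parental libraries. Tet1kd and parental values overlapped, and every Tet2kd value lay above both, which the limits of the recovery fixed in advance. By the authors' deposited tables the log2 fold change of Lefty2 was 1.24 in Tet2kd cells (adjusted p = 5.79e-39) and 0.05 in Tet1kd cells (adjusted p = 0.867). The limma interval for Tet1kd against parental ran from -0.13 to 0.24. In Tet2kd cells 3 of 6959 genes with a parental mean of at least 500, Lefty2 included, had a log2 fold change at least that of Lefty2 in the authors' deposited table. Within the deeper libraries the log2 difference of Tet2kd and parental cells was 1.23, and within the shallower ones 1.26.

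**Figure D2:**
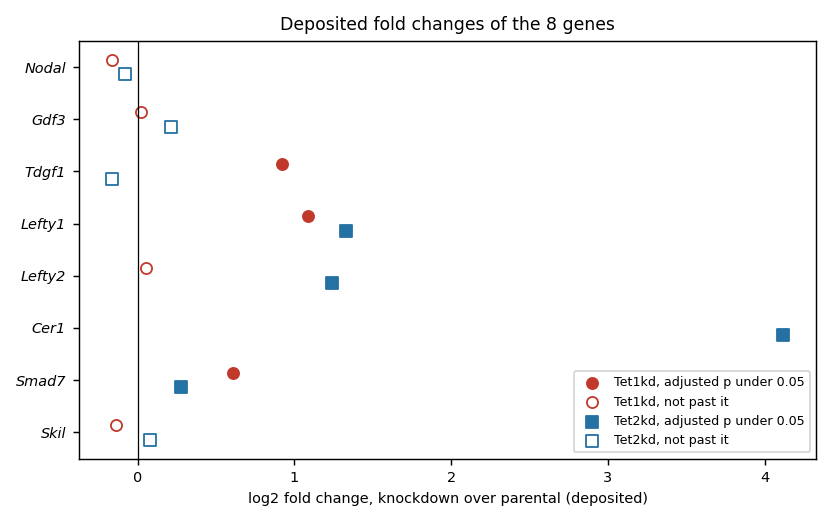
Deposited log2 fold change (x axis, knockdown over parental) of the 8 genes, circles for Tet1kd and squares for Tet2kd, filled where the adjusted p of the first deposited test was under 0.05. Lefty1 lies above 1 in both knockdowns, Lefty2 at 1.24 in Tet2kd and 0.05 in Tet1kd cells. No point is drawn for Cer1 in Tet1kd cells, where it had no reads.

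The 2 Lefty coding sequences (GENCODE M21, transcripts Lefty1-201 and Lefty2-201) are 1107 bases each and share 91.9% of their bases, with a longest identical run of 140 bases, so a read that lies wholly within such a run cannot be given to 1 of them, and levels of both genes carry that uncertainty. The stretch from coding base 34 to 93, counted from 1 at the A of the start codon, is shown because it holds 18 differences in 60 bases, in capitals.
Lefty1: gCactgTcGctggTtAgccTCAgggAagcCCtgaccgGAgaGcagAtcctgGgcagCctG
Lefty2: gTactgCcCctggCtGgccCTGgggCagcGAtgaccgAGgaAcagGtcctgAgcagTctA
After the stop codon the transcripts also differ in length, with 425 bases in Lefty1 and 1290 in Lefty2. The last exon bin, which holds this end, carried 63.4% of the binned Lefty1 signal and 91.6% of that of Lefty2 in the deposited exon table of the Tet1kd comparison.

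The balance of the 2 Lefty genes within each library was compared directly, a measure chosen after the values were seen. The number of Lefty2 reads per Lefty1 read was 1.16, 1.02, 0.978 and 0.909 in Tet1kd libraries, 2.09, 2.10, 1.83 and 1.82 in Tet2kd libraries and 2.26, 2.26, 1.75 and 2.06 in parental libraries. Every Tet1kd library lay below every other library, while Tet2kd and parental libraries overlapped. The mean ratio was 1.02 ± 0.106 in Tet1kd, 1.96 ± 0.156 in Tet2kd and 2.08 ± 0.241 in parental cells (SD, n = 4 each). The log2 ratio of Tet1kd cells was lower by a difference of -1.03 from parental cells (exact permutation test, two-sided p = 0.0286, adjusted over 3 comparisons 0.0429). This is the smallest p that 4 against 4 libraries can give. Against Tet2kd cells the difference of Tet1kd cells was -0.95 (exact permutation p = 0.0286, adjusted 0.0429). Between Tet2kd and parental cells it was -0.08 (exact permutation p = 0.4).

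**Figure D3:**
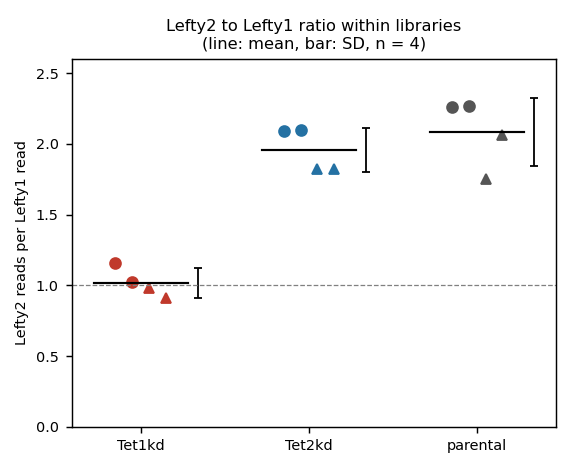
Lefty2 reads per Lefty1 read (y axis, linear from 0) in each library of Tet1kd, Tet2kd and parental cells, circles for the deeper and triangles for the shallower libraries, with the mean as a line and the SD as a bar (n = 4). The Tet1kd libraries lie between 0.909 and 1.16, below all Tet2kd and parental libraries.

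Both Lefty genes lie close to each other on chromosome 1. Of the 19 nearest genes with values around Lefty1, 7 were higher and 2 lower in Tet1kd cells (median 0.21), and 2 were higher and 0 lower in Tet2kd cells (median 0.02), from the authors' deposited tables. The 19 around Lefty2 had medians of 0.29 in Tet1kd and 0.05 in Tet2kd cells. The 2 sets of neighbours share genes, so they are not separate results.

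Cer1 (ENSMUSG00000038192, chromosome 4), which encodes the secreted Nodal and BMP antagonist Cerberus, was nearly silent. It had 0 reads in each of the 4 Tet1kd libraries, 27, 20, 14 and 4 reads in the Tet2kd libraries and 3, 2, 0 and 0 reads in the parental libraries. Every Tet2kd library held more reads than any parental library, and Tet1kd and parental cells were both at or under 3 reads per library, too few for a comparison at this depth. Summed over libraries and set against depth, Tet2kd cells held 13.8 times the parental level (65 against 5 reads, exact Clopper-Pearson 95% interval 5.6 to 43.8, which covers counting error only). In the deeper libraries alone the ratio was 10.1 (47 reads in Tet2kd against 5 in parental cells, exact 95% interval 4.03 to 32.5), and in the shallower ones Tet2kd cells held 18 reads and parental cells 0. In the authors' deposited table the means were 14.9 in Tet2kd and 0.859 in parental cells, or 4.12 on the log2 scale (adjusted p = 0.000118). The 250 bases before its start (chr4:82885152-82885401, minus strand, RefSeq GRCm38.p6) are shown beside those of Tdgf1, with the same motifs in capitals.
Cer1: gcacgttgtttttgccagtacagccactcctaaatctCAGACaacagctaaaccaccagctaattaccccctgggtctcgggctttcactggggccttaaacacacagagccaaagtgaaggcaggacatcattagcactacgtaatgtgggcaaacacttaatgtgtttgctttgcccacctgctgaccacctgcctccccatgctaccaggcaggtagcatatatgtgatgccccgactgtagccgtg
This window held 1 CAGAC, no TGTNNATT and 5 CpG.

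Cer1 and the Lefty genes are also expressed in the endoderm of the early embryo, so endoderm markers were set beside them. The summed level of 10 primitive and visceral endoderm genes was 563 to 671 in Tet1kd libraries, 348 to 393 in Tet2kd libraries and 493 to 570 in parental libraries. A single gene, Cubn, an endocytic receptor, carried much of the Tet1kd sum, with 287 to 351 in Tet1kd, 22.2 to 31.2 in Tet2kd and 52.4 to 79.9 in parental libraries. Without Cubn the sum of the other 9 was 253 to 331 in Tet1kd, 324 to 368 in Tet2kd and 434 to 490 in parental libraries, so it was lower in every library of both knockdowns than in any parental library. In Tet2kd cells 3 of the 9 tested were lower (Gata6, Sox7 and Cubn) and 0 higher, and in Tet1kd cells 2 were lower and 1 (Cubn) higher. Ttr was listed at 0 in every group and Afp had means under 1 in the authors' deposited tables. The part of endoderm-like cells in the Cer1 and Lefty values was not tested.

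Smad7 (ENSMUSG00000025880, chromosome 18), an inhibitory Smad that competes at the activated receptor, was higher in both knockdowns and more so in Tet1kd cells. Its normalized counts were 5287, 5270, 5510 and 5368 in Tet1kd libraries, 4005, 4276, 4541 and 4240 in Tet2kd libraries and 3514, 3465, 3551 and 3543 in parental libraries. The 3 groups did not overlap. By the authors' deposited tables the log2 fold change of Smad7 was 0.61 in Tet1kd cells (adjusted p = 1.75e-11) and 0.28 in Tet2kd cells (adjusted p = 0.0212). Within the deeper libraries the log2 difference from parental cells was 0.60 for Tet1kd and 0.25 for Tet2kd cells, and within the shallower ones 0.62 and 0.31. Among the 7215 genes with a parental mean of at least 500 in the authors' deposited table, 373 had a log2 fold change in Tet1kd cells at least that of Smad7.

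Skil (ENSMUSG00000027660, chromosome 3), which encodes the nuclear co-repressor SnoN that binds Smad complexes, passed the first deposited test in neither knockdown. Its normalized counts were 4562, 4429, 4228 and 3976 in Tet1kd libraries, 5090, 5547, 4740 and 4563 in Tet2kd libraries and 4935, 5001, 4487 and 4482 in parental libraries. Each knockdown overlapped the parental range, while the Tet1kd values lay below all Tet2kd values. The nearest pair was 4562 in a deeper Tet1kd and 4563 in a shallower Tet2kd library. The log2 difference of Tet1kd and Tet2kd cells was -0.24 within the deeper and -0.18 within the shallower libraries. By the authors' deposited tables the log2 fold change of Skil was -0.14 in Tet1kd cells (adjusted p = 0.235, and 0.00219 in their second test) and 0.08 in Tet2kd cells (adjusted p = 0.759). The log2 difference from parental cells within the deeper libraries was -0.14 for Tet1kd and 0.10 for Tet2kd cells, and within the shallower ones -0.13 and 0.05.

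The knockdowns were set against each other with limma on the 12 recovered libraries. Of the 6 genes that could be tested 5 passed an adjusted p of 0.05, where 48.8% of all 14642 genes did. Lefty2 differed most, with a log2 difference of -1.19 (Tet1kd minus Tet2kd, 95% interval -1.38 to -1.0, adjusted p = 1.15e-06). Smad7 was the only one of these 6 that was higher in Tet1kd than in Tet2kd cells, by 0.33 on the log2 scale (0.23 to 0.43, adjusted p = 0.000187). Lefty1 and Gdf3 were lower in Tet1kd cells, with log2 differences of -0.24 (-0.38 to -0.11, adjusted p = 0.00631) and -0.19 (-0.29 to -0.10, adjusted p = 0.0037). The log2 difference of Skil was -0.21 (-0.38 to -0.05, adjusted p = 0.0358), a call lost without Tet1kd library b, c or d or without Tet2kd library a or b (adjusted p of 0.0502, 0.074, 0.0956, 0.0797 and 0.0961, in that order). In limma it was also lost without a filter on low values (adjusted p = 0.0762) and with scaling by total recovered reads (0.0512), and kept with a term for library depth (0.00104). Nodal did not pass, at -0.09 (-0.33 to 0.14, adjusted p = 0.502). Cer1 was under the limit on the mean. In limma without that limit its log2 difference was -4.93 (-6.24 to -3.63, adjusted p = 0.000134), from 0 reads in Tet1kd and 65 in Tet2kd cells. With every Tet1kd value at 0, this size and interval depend on the 0.5 added to each normalized count.

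Exon use was compared in the authors' deposited exon tables, where the 8 genes had 65 exon bins, numbered along the genome. In Tet1kd cells 3 of 57 tested bins were called, beside 2.56% of all 195843 bins. All 3 were in Tdgf1, with lower use in Tet1kd cells of bins E002 (adjusted p = 0.0291) and E004 (adjusted p = 5.5e-05) and higher use of E006 (adjusted p = 0.00125) in the authors' deposited table. E006 is the first exon bin of the transcript, since Tdgf1 lies on the minus strand, and E002 had a mean of only 19.2 normalized counts. Bin E001, the 3′ end, carried 89.5% of the binned Tdgf1 signal there and was not called (adjusted p = 0.531).

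In Tet2kd cells 4 of 58 tested bins were called, beside 2.45% of all 193091 bins in the authors' deposited table. Use of the last bin was higher in Tet2kd cells in Lefty1 (E006, adjusted p = 0.0293), in Smad7 (E014, adjusted p = 0.0332) and in Skil (E026, adjusted p = 0.000532), and use of Smad7 bin E009 was lower (adjusted p = 0.0113), in the authors' deposited table. The last Lefty1 bin carried 66.5% of its binned signal in the Tet2kd comparison. No bin of Nodal, Gdf3 or Lefty2 was called in either knockdown, and no Cer1 bin was tested.

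The wider pathway was described with 45 other genes of a list of 46, sorted by role. In Tet1kd cells 11 were higher, 13 lower and 21 neither (53.3% called, median log2 fold change -0.09), and in Tet2kd cells 5 were higher, 4 lower and 36 neither (20% called, median 0.03) in the authors' deposited tables. Of all genes 30.4% were called in Tet1kd (15.2% higher) and 7.14% in Tet2kd cells (3.85% higher) there. The counts by role below stand against these shares, which include genes with few reads. Among genes with a mean of at least 10, limma, a different test, called 53.1% for Tet1kd and 17.7% for Tet2kd against parental cells. Among 5 other ligands, the activin subunit gene Inhba (-2.75, adjusted p = 9.14e-26) and Tgfb2 (-2.09, adjusted p = 9.21e-16) fell and the activin subunit gene Inhbb (1.05, adjusted p = 2.33e-23) rose in Tet1kd cells, each on the log2 scale of the authors' deposited table. Inhbb fell in Tet2kd cells, with a log2 fold change of -0.85 (adjusted p = 2.13e-06), the only one of the 5 called there in the authors' deposited table.

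Among 8 receptors and co-receptors 1 was higher and 3 lower in Tet1kd cells. The type I activin and Nodal receptor gene Acvr1b rose (0.62, adjusted p = 1.07e-10), and the TGF-beta receptor gene Tgfbr2 (-1.01, adjusted p = 1.4e-06) and the type II activin receptor gene Acvr2a (-0.40, adjusted p = 0.00127) fell, on the log2 scale of the authors' deposited table. In Tet2kd cells 1 was called, Cfc1, which encodes Cryptic, a relative of Tdgf1. It was low, with means of 17.7 in Tet2kd and 3.92 in parental cells (2.18 on the log2 scale, adjusted p = 0.0352), both from the authors' deposited table. Of the proprotein convertase genes, whose products cleave the Nodal precursor, Furin rose in Tet1kd cells (0.58, adjusted p = 1.19e-06) and Pcsk6 fell in Tet2kd cells (-0.41, adjusted p = 0.000102) in the authors' deposited tables.

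**Figure D4:**
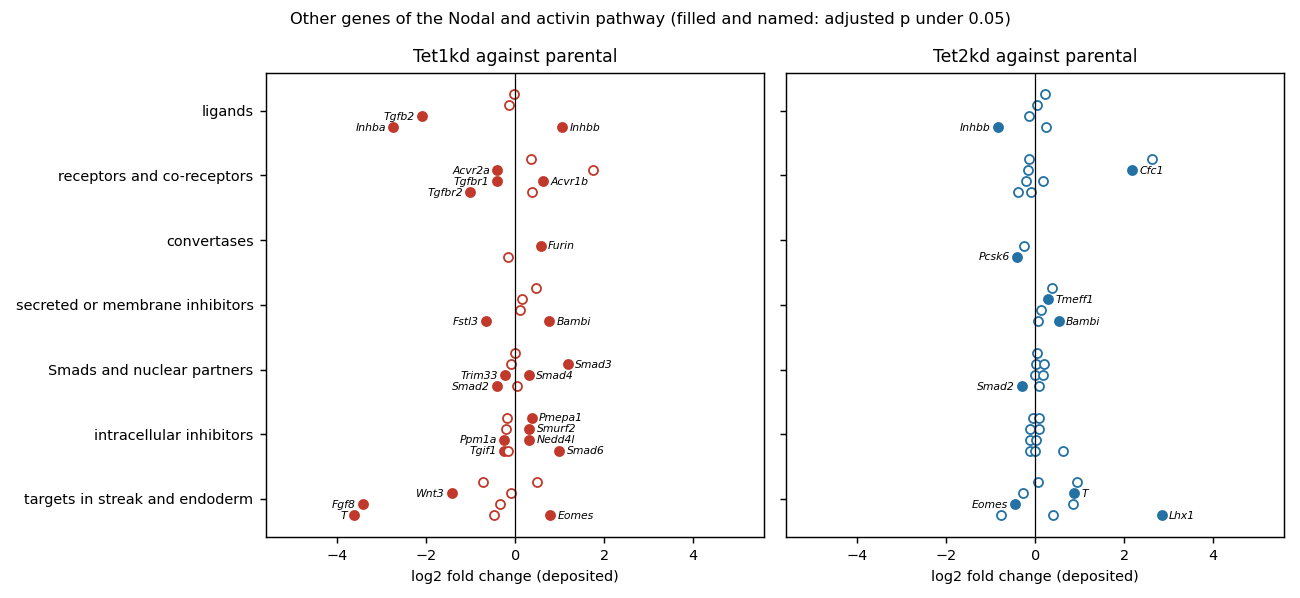
Deposited log2 fold change (x axis) of the other pathway genes by role, Tet1kd on the left and Tet2kd on the right, filled and named where the adjusted p was under 0.05. Of 45 genes 11 were higher and 13 lower in Tet1kd cells and 5 were higher and 4 lower in Tet2kd cells, and Acvr1c, with no reads in Tet1kd cells, is not drawn there.

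Of 5 other secreted or membrane inhibitors, Bambi, a receptor-like protein without a kinase, rose in both knockdowns, with log2 fold changes of 0.76 in Tet1kd (adjusted p = 1.3e-08) and 0.53 in Tet2kd cells (adjusted p = 0.000418) in the authors' deposited tables. The follistatin-like gene Fstl3 fell in Tet1kd cells (-0.66, adjusted p = 0.0416) and Tmeff1 rose in Tet2kd cells (0.30, adjusted p = 0.00723) in the authors' deposited tables. Among 7 Smads and nuclear partners, Smad3 (1.18, adjusted p = 1.88e-29) and Smad4 (0.31, adjusted p = 0.00128) rose and Smad2 (-0.41, adjusted p = 2.38e-05) fell in Tet1kd cells, with 1 more lower, in the authors' deposited table. Smad2 was the only one called in Tet2kd cells, where it fell (-0.30, adjusted p = 0.0151 in the authors' deposited table). The Nodal partner Foxh1 had log2 fold changes of 0.00 in Tet1kd (adjusted p = 0.98) and 0.02 in Tet2kd cells (adjusted p = 1) in the authors' deposited tables.

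Of 9 other intracellular inhibitors 4 rose and 2 fell in Tet1kd cells, and 0 were called in Tet2kd cells. The inhibitory Smad gene Smad6 (0.99, adjusted p = 0.000155), the ubiquitin ligase gene Smurf2 (0.32, adjusted p = 0.00164) and Pmepa1 (0.37, adjusted p = 0.00198) had the smallest adjusted p values in Tet1kd cells in the authors' deposited table. For Smad6 in the Tet2kd comparison the means were 98.9 in Tet2kd and 64.5 in parental cells in the authors' deposited table, which missed the threshold (adjusted p = 0.199).

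The targets in primitive streak and endoderm were called in both directions in each knockdown. Of 9 genes 1 was higher and 3 lower in Tet1kd cells, and 2 were higher and 1 lower in Tet2kd cells. Brachyury (T), a transcription factor of early mesoderm, had a mean of 11.1 in Tet1kd against 137 in parental cells, and of 230 in Tet2kd against 126 in parental cells, in the authors' deposited tables. Its log2 fold changes there were -3.63 (adjusted p = 4.79e-39) and 0.87 (adjusted p = 1.27e-06). Eomes, another T-box factor, rose in Tet1kd cells (0.79, adjusted p = 1.87e-11) and was lower in Tet2kd cells (-0.45, adjusted p = 0.00845) in the authors' deposited tables. The growth factor gene Fgf8 fell in Tet1kd cells (-3.43, adjusted p = 2.31e-06), and the homeobox gene Lhx1 rose in Tet2kd cells (2.84, adjusted p = 5.67e-08), with means of 34.7 in Tet2kd and 4.84 in parental cells in the authors' deposited table.

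Genes whose pair of deposited log2 fold changes was most like that of a pathway gene were ranked by Euclidean distance over the 3 conditions among 10743 genes with a parental mean of at least 100. For Lefty1 they were Ifitm1 (distance 0.232), Gm5514 (0.338) and Otx2 (0.436), and Otx2 had log2 fold changes of 1.52 in Tet1kd and 1.33 in Tet2kd cells in the authors' deposited tables. For Lefty2 they were Gm5229 (0.0969), Dner (0.217) and Tspan17 (0.304). As genes picked for fold changes like those of Lefty1 or Lefty2, they share the direction of change by selection. For Nodal, whose values lie among many genes that changed little, they were Hspa9, Micu3 and Amer1, at distances of 0.00188 to 0.00254.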

How the data were processed

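The submitters' processing notes name TopHat2 (version 2.0.0), SAMtools (version 0.1.18) and DESeq, and the builds mm9 and NCBIM37. Per the file headers, each deposited gene table holds the mean signal of a group (normalized count), the fold ratio of knockdown to parental, that ratio in log2, and a p-value and adjusted p-value of each of 2 tests. The deposited DEXSeq tables hold the mean signal of exon bins, a log2 ratio (parental over knockdown, of which only directions are given), p-values and a dispersion score.

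Calls use the first deposited adjusted p-value at 0.05. Reads per library were recovered as the only whole numbers that match the deposited means, within 60% or, where several sets matched, 20% of the mean. The narrower limit settled Lefty2 in Tet2kd and Smad7 and Skil in Tet1kd cells, so their SDs and limma intervals lean small. It also fixed in advance that the Lefty2 values of Tet2kd and the Smad7 values of Tet1kd cells lay above the parental ones. Together with the 60% limit on Tet1kd cells, it fixed that the Lefty2 values of Tet2kd lay above those of Tet1kd cells. The recovery gave 21244 of 21658 Tet1kd, 21082 of 21368 Tet2kd and 22003 of 22004 parental genes with reads. On simulated data 4349 of 4349 parental, 3872 of 3872 Tet1kd and 3903 of 3905 Tet2kd answers were right. Under the narrower limit 189 of 189 Tet1kd and 112 of 114 Tet2kd answers were right. The simulated reads had the same small spread between libraries, beyond counting error, in every gene. The simulation therefore cannot show how often recovery fails where libraries differ more widely. The libraries carry letters, since no replicate number could be given to them. limma (version 3.58.1, R 4.3.3) took log2(normalized count + 0.5) of genes whose mean reached 10, with p-values adjusted over all of these. On simulated Tet1kd and parental data it called 100 of 100 genes changed 2-fold, 64 of 100 changed 1.5-fold and 7 unchanged genes among 14355. That simulation held far fewer changed genes than limma called in the real comparison (53.1%). The edgeR and DESeq2 tests, planned for tables with counts per sample, were not run on the recovered reads. Levels per kb use the longest GENCODE M21 transcript. Gdf1 and Dab2 of the lists were not analysed here. One further gene of the pathway list is not reported here and is left out of its counts. The genes and lists were chosen with earlier results of these data known. All 8 genes are named, and of each role up to 3 called genes with the smallest adjusted p per comparison.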

Additional observations from a re-analysis of the deposited data

Results flagged for a closer look

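One Cer1 library stood apart. The lowest Tet2kd library had 6.24 normalized counts against 18.4 in the nearest of the other libraries, a gap of 0.834 of the group's range, from 4 reads. Among the 21 groups of 4 libraries examined in this way, chance gives about 1.05 such cases.

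The knockdowns differed from each other in 5 genes by limma on the log2 scale, Tet1kd minus Tet2kd. The differences were -1.19 for Lefty2, -0.244 for Lefty1, -0.192 for Gdf3, -0.212 for Skil and 0.33 for Smad7. In Lefty2, Lefty1 and Gdf3 all 4 Tet1kd libraries were lower than all 4 Tet2kd libraries, and in Smad7 all 4 were higher. For Lefty2 the limits of the recovery fixed this separation in advance. All 4 Tet1kd libraries were also lower in Skil, but that call was lost in 7 of 13 alternatives. The share of all genes that separate so was not counted, and limma called 48.8% of all 14642 genes between the knockdowns.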

How the results depend on the processing

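Of 327 alternative values 301 kept their direction and their side of the threshold, or for counts stayed within 1.5 times, and 0 reversed. Another 18 newly passed the threshold: Gdf3 in Tet2kd cells in 15 of 15 alternatives (adjusted p of 1.42e-05 to 0.0347), Skil in Tet1kd cells in the second deposited test and with a depth term in limma (0.0111), and Tdgf1 in Tet2kd cells in the second test. The 7 lost calls were all of Skil between the knockdowns. At a threshold of 0.01 the called exon bins of the 8 genes in Tet2kd cells numbered 1 in place of 4, since fewer p-values pass a stricter threshold. The second deposited test called 4 of the 8 genes in Tet1kd cells, where it called 39.2% of all genes, and 6 in Tet2kd cells, where it called 18.2%. Of these, Skil was lower in Tet1kd and Tdgf1 in Tet2kd cells. With 1 library left out at a time, limma called 2 of the genes in Tet1kd cells in every case (it cannot test Tdgf1), 4 in Tet2kd cells (Cer1 falls under its limit of a mean of 10 and Gdf3 takes its place) and 4 to 5 between the knockdowns. The log2 difference in the Lefty2 to Lefty1 ratio, an alternative chosen after seeing the data, then ranged from -1.11 to -0.98 for Tet1kd and from -0.17 to -0.04 for Tet2kd cells. No paired analysis was possible because the tables hold group means and the recovered libraries carry no replicate numbers. The edgeR and DESeq2 tests of counts were not run. Depth limits Cer1, which had 0 reads in Tet1kd and 5 in parental cells over all libraries of the group.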
